A study of Homo sapiens with 8 samples.

Results

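The 2 DMSO-treated libraries of HepG2 cells that overexpress CYP2C19, out of 8 libraries in the series, were chosen by their sample labels and describe what these cells expressed without a test compound. HepG2 is a human cell line from a liver tumour, widely used as a stand-in for hepatocytes. The cells had been transfected with CYP2C19, a cytochrome P450 enzyme that oxidizes many drugs, and were kept in DMEM medium with 10% fetal bovine serum and 3 µg/mL blasticidin, which selects for the transfected cells. They were seeded 24 h before treatment and received 0.2% DMSO, the solvent, for 24 h. The other 6 libraries came from the same cells given compound 4, 5 or 6, antioxidants used in plastics, and enter below only where they are named. The labels call the DMSO samples day 1 and day 2, which was taken as the replicate number. No source states that the samples were separate cultures, so the spread between them may be technical. Neither HepG2 cells without the CYP2C19 construct nor normal liver belongs to the design, so the levels are described by themselves and not tested against another tissue.

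Hepatocytes make most of the proteins of blood plasma, turn ammonia into urea, keep blood glucose steady between meals, make bile acids from cholesterol and clear drugs from the blood. Drug clearance proceeds in steps: uptake carriers bring a compound into the cell, phase I enzymes such as the cytochromes P450 oxidize it, phase II enzymes attach a polar group such as glucuronic acid, sulfate or glutathione, and efflux pumps export the product. Nuclear receptors that sense foreign compounds set the levels of many of these genes. Liver tumour lines are known for keeping parts of this programme and for expressing fetal liver genes.

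The counts summed to 9791659 in replicate 1 and 11444500 in replicate 2. Levels are given as CPM, the count of a gene per 1000000 counts of its library, in the order replicate 1 and replicate 2. Longer transcripts give more counts, so an order of genes in CPM is an order of counts. Ratios between the levels of different genes were taken only on a length-scaled measure, in which counts were divided by the kilobases of annotated transcript and then scaled to a sum of 1000000 in each library, abbreviated KPM. A gene counted as detected with at least 1 CPM in both libraries (9.79 and 11.4 counts), silent with 0 counts in both, and in trace otherwise. A count of 0 allows a level of up to 0.306 CPM in replicate 1 and 0.262 CPM in replicate 2, taken as 3 counts. Intervals and limits cover counting error only.

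Of 60230 genes in the table, 12471 (20.7%) were detected, 6852 (11.4%) were in trace and 40907 (67.9%) were silent. Among 19828 protein-coding genes, 11329 (57.1%) were detected, 2593 (13.1%) were in trace and 5906 (29.8%) were silent. The median detected gene stood at 26.0 and 27.4 CPM. A level of at least 100 CPM in both libraries was reached by 1789 genes, of at least 1000 CPM by 97 genes and of at least 10000 CPM by 4 genes. The 10 most abundant genes held 11.9% and 10.7% of all counts, the 100 most abundant held 30.0% and 27.6%, and the 1000 most abundant held 59.4% and 57.7%.

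The gene with the highest CPM was ALB, which encodes albumin, the main protein of plasma, at 20588 and 20134 CPM. It was followed by MT-CO1, a mitochondrially encoded subunit of cytochrome c oxidase, at 18952 and 14842 CPM, and by EEF1A1, the factor that brings aminoacyl-tRNA to the ribosome, at 16124 and 15783 CPM. Secreted liver proteins, mitochondrial transcripts and genes of protein synthesis thus shared the top ranks. Other secreted proteins among the 20 highest were APOB (10470.1 and 9132 CPM), the structural protein of low-density lipoprotein, AFP (8633 and 9389 CPM), the albumin-like protein of fetal liver, and FN1 (7799.6 and 5685 CPM), fibronectin of plasma and matrix. They were joined by the iron carrier TF (6776 and 6395 CPM), the protease inhibitors A2M (6707 and 5505 CPM) and SERPINA1 (3881 and 3797 CPM), the fetuin AHSG (4103 and 3764 CPM), the complement component C3 (4155 and 3431 CPM) and the high-density lipoprotein protein APOA1 (3544 and 3421 CPM). The 20 also held the ferritin light chain FTL (6765 and 7677 CPM), the elongation factor EEF2 (5136 and 4449.8 CPM), the glycolytic enzyme ENO1 (3575 and 3188 CPM) and 6 mitochondrial genes.

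**Figure D1:**
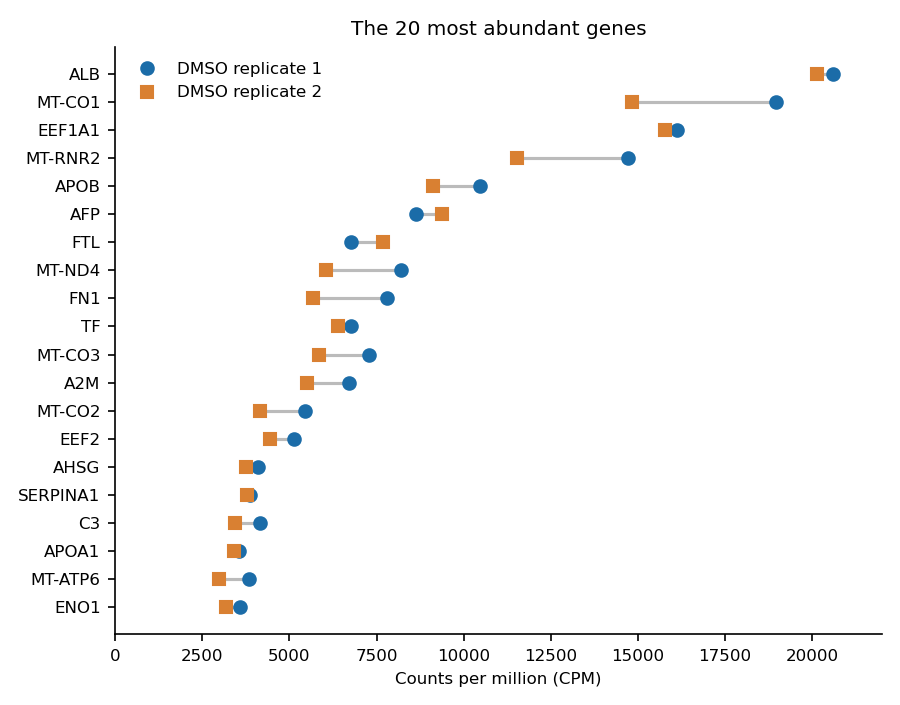
Levels of the 20 genes with the highest mean CPM in the DMSO libraries, on a linear axis in CPM, with replicate 1 as circles and replicate 2 as squares and a line between both. ALB stands highest in both libraries, and the points of the 6 mitochondrial genes lie lower in replicate 2 than in replicate 1.

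On the length-scaled measure ALB was also first, at 21844 and 21395 KPM, and AFP reached 6911 and 7527 KPM. The ALB level was 3.16 and 2.84 times the AFP level in the 2 libraries, and between 2.07 and 2.62 times with other definitions of transcript length. Both genes lie next to each other on chromosome 4. 11 of the 20 genes were among the highest on both measures. Length scaling brought in short transcripts: APOA2 at 6114 and 6155 KPM, the ferritin heavy chain FTH1 at 5641 and 6046 KPM, the antibacterial enzyme LYZ at 5673 and 5049 KPM, the ribosomal proteins RPS2, RPLP0 and RPLP1, and further mitochondrial genes, which made up 9 of the 20. LYZ, lysozyme, stood at 2156 and 1916 CPM. The first place depended on the length used, since it went to MT-CO1 with the union of exons or the longest transcript and to FTL with the longest coding sequence, a length tried after the data had been seen. TF has a median annotated transcript of 20602 bases, which places it at 579 and 547 KPM on this measure. Its longest coding sequence has only 2094 bases, so this level depends strongly on the length used and may be far too low.

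Mitochondrially encoded genes, ribosomal RNA included, held 7.49% and 5.86% of the counts, and 87 genes of cytosolic ribosomal proteins held 6.59% and 6.55%. All 13 mitochondrially encoded proteins were detected, as were all 48 NDUF genes, which encode subunits and assembly factors of respiratory complex I in the nucleus. Of the 50 proteasome genes 47 were detected. The 101 genes of 5 plasma protein lists held 8.53% and 8.13% of the counts, the 261 genes of all 12 hepatocyte function lists held 9.96% and 9.48%, and the 231 genes of 14 drug metabolism lists held 1.41% and 1.38%. The 57 CYP genes listed held 0.101% and 0.0904%.

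Markers of the labelled cell type were present. All 15 hepatocyte markers were detected, with a summed level of 53624 and 51090 CPM, and 12 of them had at least 100 CPM in both libraries. Cholangiocyte markers were mixed, with 6 of 10 detected and a sum of 1758 and 1483 CPM. Those detected were SPP1 (745 and 538 CPM), ANXA4 (375 and 319.5 CPM), EPCAM (173 and 183 CPM), SLC4A2 (164 and 179.6 CPM), SOX9 (172 and 146 CPM) and KRT19 (129.7 and 117 CPM). KRT7, AQP1 and CFTR had 0 counts. Of 12 stellate cell and fibroblast markers 3 were detected, and nearly all of their sum of 1298 and 1095 CPM came from RELN, a secreted glycoprotein (1275 and 1075 CPM), with COL1A2, DCN and LUM at 0. Endothelial markers gave 1 of 11 detected with a sum of 1.53 and 1.31 CPM, macrophage markers 1 of 11 (CD68 at 24.6 and 21.0 CPM, with CD163, MARCO and PTPRC at 0), lymphocyte markers 2 of 11 with a sum of 6.74 and 4.46 CPM, and erythroid markers 1 of 10 with a sum of 5.11 and 3.76 CPM.

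Among the hepatocyte function lists together, 203 of 261 genes (77.8%) were detected, 30 were in trace and 28 were silent, and among the drug metabolism lists together 133 of 231 (57.6%) were detected, 38 were in trace and 60 were silent, beside 57.1% detected among all protein-coding genes. The factors that specify hepatocytes were nearly complete, with 26 of 27 detected. HNF4A, the nuclear receptor at the centre of hepatocyte gene control, stood at 313 and 311 CPM, CEBPA at 138 and 161 CPM and PROX1 at 86.9 and 77.4 CPM. The forkhead factors that open liver chromatin were all detected, with FOXA1 at 61.1 and 62.1 CPM, FOXA2 at 56.5 and 46.0 CPM and FOXA3 at 41.5 and 39.8 CPM. The 1 exception was NR1I3, which encodes the drug-sensing receptor CAR, at 0.102 and 0.0874 CPM, or 1 count in each library.

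Plasma transport proteins had 21 of 25 genes detected. Below ALB, AFP, TF, A2M and AHSG, the list reached ITIH2 (1681 and 1839 CPM), a carrier of hyaluronan, and APOH (975 and 1236 CPM). TTR, a carrier of thyroid hormone, stood at 87.3 and 76.3 CPM, and the haemoglobin scavenger HP stood at 33.8 and 39.6 CPM. Not every member of the albumin gene family on chromosome 4, which holds ALB and AFP, was detected. GC, the vitamin D carrier, had 1 count in replicate 1 and 0 in replicate 2, and AFM had 0 and 4 counts. AFM lies close to AFP, while GC lies further off, with a start at 71741700 against 73397100 for ALB. ITIH4 had 0 counts in both libraries, and FETUB and ITIH1 stood at 0.715 and 0.612 CPM and 0.511 and 0.524 CPM.

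Of 18 genes of apolipoproteins and lipoprotein assembly, 16 were detected. APOE, which directs lipoprotein remnants to their receptors, was at 866 and 880.1 CPM, and MTTP, which loads lipid onto APOB, at 176 and 179.7 CPM. The neighbours APOA1, APOC3, APOA4 and APOA5 on chromosome 11 were all detected but unequal: per length, APOA1 was 34.6 and 43.4 times as high as APOC3, with a range of 25.9 to 45.1 over the other lengths. APOC4 and LPA, which encodes apolipoprotein(a), had 0 counts.

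Coagulation had 17 of 22 genes detected. The 3 chains of fibrinogen were present at 529 and 532 CPM for FGA, 172 and 209 CPM for FGB and 950.4 and 1118 CPM for FGG. Per length FGG was 5.27 and 5.10 times as high as FGB, although the protein holds equal numbers of each chain, and the ratio was between 4.02 and 5.89 with other lengths. Prothrombin, F2, stood at 491 and 512 CPM, heparin cofactor SERPIND1 at 422 and 342 CPM and antiplasmin SERPINF2 at 354 and 328 CPM. F9, the factor lacking in haemophilia B, had 0 counts, and KLKB1, HRG, F13B and KNG1 were in trace, all below 1.2 CPM.

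Complement had 17 of 21 genes detected, led by C3 and by C4A (451 and 385 CPM) and C4B (324 and 282 CPM), near-identical copies whose reads the counting may divide. C2 stood at 252 and 218 CPM and CFB at 164 and 134 CPM. C9, which forms the membrane pore, had 2 counts in replicate 1 and 0 in replicate 2. Among protease inhibitors and acute-phase proteins, 10 of 15 were detected, and the members were either present or at 0. SERPINA1, AGT (1340.2 and 1319 CPM), the precursor of angiotensin, and SERPINF1 (587 and 573 CPM) were high. CRP, SAA1, SAA2, LBP and PTX3 had 0 counts in both libraries. The acute-phase proteins ORM1 (245 and 288 CPM) and ORM2 (190 and 223 CPM), counted on the transport list, were detected. SERPINA3 at 414 and 220.2 CPM and HAMP, the iron hormone hepcidin, at 30.2 and 9.17 CPM were present but unequal between the replicates.

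The urea cycle was detected in part. CPS1, which starts the cycle, stood at 20.9 and 24.3 CPM, ASS1 at 82.6 and 74.9 CPM and ASL at 78.0 and 82.0 CPM. The steps just before ASS1 and just after ASL were not detected: OTC had 1 count in replicate 1 and 0 in replicate 2, and ARG1, the arginase that releases urea, stood at 0.919 and 0.262 CPM. GLUL, which captures ammonia as glutamine, stood at 391 and 375 CPM. In amino acid breakdown 21 of 28 genes were detected, with HPD at 212 and 173 CPM, HGD at 92.9 and 102 CPM and FAH at 66.1 and 69.4 CPM along the route of tyrosine. TAT, which feeds tyrosine into that route, was at 2.66 and 2.88 CPM. TDO2, which opens tryptophan breakdown, AGXT2 and SDS had 0 counts.

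In glucose metabolism, 15 of 19 genes of gluconeogenesis and glycogen were detected. The mitochondrial form of phosphoenolpyruvate carboxykinase, PCK2, stood at 198 and 165 CPM and the cytosolic form PCK1 at 69.5 and 43.1 CPM. G6PC1, which releases free glucose, was at 9.50 and 4.19 CPM. Steps that a hepatocyte uses for glucose output and storage were in trace, with FBP1 at 0.817 and 0.699 CPM and the liver glycogen synthase GYS2 with 0 and 1 counts. Glycolysis had 19 of 22 genes detected, with ENO1, GAPDH (2899.6 and 2764 CPM), LDHA (2220.2 and 2038 CPM) and ALDOA (2211 and 2008 CPM) at its head in CPM.

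Several enzymes exist in a liver form and a form of other tissues, and these pairs, chosen after their values had been seen, were compared per length. Pyruvate kinase PKM stood at 1513 and 1486 KPM and the liver gene PKLR at 11.8 and 10.6 KPM, a ratio of 128 and 140. Over the other definitions of length that ratio ranged from 39.3 to 125. The glucose transporter SLC2A1 was 18.5 and 19.9 times as high as the liver transporter SLC2A2 (8.76 to 13.9 with other lengths). In methionine activation the liver gene MAT1A was nearly level with MAT2A, the form of other tissues, at a MAT2A ratio of 1.29 and 1.45, and the order turned with other lengths (0.740 to 1.22). LDHB had 0 counts in both libraries, so LDHA was at least 5636 and 6045 times as high per length, taken against 3 counts per library, and at least 3481 times with each other length. HK2 at 108 and 109 KPM and HK1 at 0.700 and 0.0800 KPM formed another unequal pair, although HK1, and not HK2, is the form of most normal tissues.

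Bile acid genes were detected in 20 of 26. CYP27A1 of the alternative synthesis route stood at 182 and 182 CPM, while CYP7A1, the rate-limiting enzyme of the classical route, was in trace at 0.817 and 0.874 CPM and CYP7B1 had 0 counts. Transport genes were unequal. ABCC2, an export pump for conjugates into bile, stood at 582 and 589 CPM, whereas ABCB11, the export pump for bile acids, had 0 counts, as had SLC10A1 and SLCO1B1, which take bile acids up from blood, while SLC51A (7.66 and 8.48 CPM), SLC51B (10.3 and 14.2 CPM) and SLCO1B3 (2.96 and 5.68 CPM) were detected. Fatty acid oxidation had 16 of 21 genes detected, with HADHA at 363 and 351 CPM and CPT1A, the gate into mitochondria, at 162 and 114 CPM. ACADL and FGF21 had 0 counts.

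The list of alcohol, vitamin and other liver enzymes was the least complete of the 12, with 17 of 30 detected and 8 silent. The class I alcohol dehydrogenases ADH1A, ADH1B and ADH1C, the main ethanol-oxidizing enzymes of liver, had 0 counts. ADH5, which is found in most tissues, was at 169.6 and 190.5 CPM, ADH4 at 7.56 and 10.0 CPM and the acetaldehyde dehydrogenase ALDH2 at 186 and 205 CPM. GHR, the growth hormone receptor, and HSD11B1, which regenerates cortisol, had 0 counts, and IGF1 had 1 count in each library. The asialoglycoprotein receptor, which clears glycoproteins from blood, was high in both its chains, with ASGR1 at 637 and 628 CPM and ASGR2 at 375 and 402 CPM.

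CYP2C19, the overexpressed gene, had 270 counts in replicate 1 and 196 in replicate 2, which are 27.6 and 17.1 CPM with exact Poisson 95% intervals of 24.4 to 31.1 and 14.8 to 19.7 CPM. The mean was 22.4 ± 7.39 CPM (SD, n = 2), and the difference between the replicates exceeded counting error, since the intervals did not overlap. CYP2C19 had rank 5136 in KPM and rank 6917 in CPM, and 44.5% of the detected genes stood below it in CPM. In the 6 compound libraries the gene stood at 31.1 and 44.6 CPM with compound 4 and 49.8 and 37.4 CPM with compound 5, all above both DMSO libraries, and at 24.1 and 21.6 CPM with compound 6, within their range. For compound 4 in replicate 1 the interval, 27.9 to 34.6 CPM, overlapped that of DMSO replicate 1. The counts do not tell the endogenous gene from the introduced one, and part of an introduced sequence may lie outside the annotated transcripts. Of its neighbours on chromosome 10, CYP2C8 had 1 count in replicate 1 and 0 in replicate 2, and CYP2C18 had 0 counts in both. These genes are close in sequence, so their reads could in principle be shared.

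Of the 57 CYP genes listed, 24 were detected, 13 were in trace and 20 were silent. Per length, the highest was CYP51A1, the lanosterol demethylase of cholesterol synthesis, at 189 and 163 KPM, followed by CYP27A1 at 140.4 and 141 KPM, CYP2W1 at 138 and 132 KPM and CYP24A1, which inactivates vitamin D, at 104 and 72.1 KPM. The CYP27A1 and CYP2W1 values differed by little, and CYP2W1 is known from fetal gut and tumours rather than adult liver. Below a gap came CYP4F12 at 28.7 and 35.8 KPM, CYP20A1 at 23.7 and 33.9 KPM, CYP2C19 at 30.3 and 18.8 KPM and CYP4F3 at 24.0 and 20.8 KPM. The range of CYP2C19 overlapped those of the other named genes of this group, while CYP4F12 lay above CYP4F3 in both libraries.

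Several P450 enzymes that carry much of the drug oxidation in liver were low or absent. CYP3A4 had 1 count in replicate 1 and 0 in replicate 2, as had CYP2E1. CYP2D6 had 1 and 3 counts, and CYP1A2 and CYP2A6 had 0 counts. CYP3A5 was detected at 4.39 and 2.45 CPM and CYP3A7, the fetal form, was in trace at 0.715 and 0.874 CPM. CYP2B6 stood at 10.2 and 6.73 CPM, CYP1A1 at 5.92 and 4.89 CPM, CYP2S1 at 26.8 and 21.9 CPM and CYP2J2 at 5.00 and 4.72 CPM. Genes of the P450 machinery were all detected, 8 of 8. POR, the reductase that passes electrons to microsomal P450 enzymes, stood at 553 CPM in both libraries, and per length it was 12.8 and 20.5 times as high as CYP2C19. This ratio and the order of the CYP genes per length used only the median annotated transcript length, and other lengths were not tried. CYB5R3 reached 315 and 273 CPM and PGRMC1 169 and 182 CPM.

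Among the other phase I enzymes 26 of 36 were detected, and reductases led the list in CPM. AKR1C1, an aldo-keto reductase of steroids and carbonyl compounds, reached 2819.8 and 2416 CPM, the quinone reductase NQO1 1361 and 1492 CPM, AKR1B10 434 and 406 CPM, AKR1C3 378 and 332 CPM and AKR1C2 258 and 220.1 CPM. The AKR1C genes are close in sequence, so their reads may be divided unevenly among them. The liver carboxylesterase CES1 stood at 122 and 117 CPM, the epoxide hydrolase EPHX1 at 156 and 149.6 CPM and FMO5 at 112 and 85.8 CPM. FMO1, FMO2, XDH and CBR3 had 0 counts.

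Phase II genes differed by family. Of 24 genes on the UGT list, which adds glucuronic acid, 7 were detected, among them UGDH (544 and 576 CPM) and UGP2 (91.5 and 94.4 CPM), which make the sugar donor. Among the transferases, UGT2A3 stood at 75.5 and 84.6 CPM, UGT2B7 at 10.3 and 11.8 CPM, UGT2B4 at 7.05 and 7.95 CPM and UGT1A1, which conjugates bilirubin, at 1.84 and 1.83 CPM. UGT2B15 and UGT2B17 had 0 counts. The UGT1A genes share their last exons, so their counts are uncertain. Sulfotransferases had 6 of 15 detected, with SULT1A1 at 183 and 175 CPM and SULT2A1, the hydroxysteroid form, at 29.8 and 26.2 CPM, while SULT1E1 had 1 count and 0.

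14 of the 20 glutathione transferase genes found were detected, led by the microsomal MGST1 (187 and 201 CPM) and by GSTO1 (139.7 and 138 CPM). The alpha forms that abound in liver were low, with GSTA1 at 2.76 and 5.16 CPM and GSTA2 at 4.60 and 5.33 CPM, and GSTP1 had 0 counts. In the remaining conjugation list 10 of 15 were detected, with HNMT at 128 and 130.0 CPM, and NAT2, NNMT, GLYAT and INMT had 0 counts. NAT1, the acetyltransferase of most tissues, stood at 3.57 and 3.32 CPM.

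The lists of uptake and efflux transporters were unlike. Uptake transporters had 12 of 24 genes detected (50%) and 8 silent, near the 57.1% detected among all protein-coding genes. Efflux transporters had 14 of 15 detected (93.3%) and 1 silent, ABCB11. The statin carrier SLCO1B1 and the bile acid carrier SLC10A1 had 0 counts, and SLCO1B3 stood at 2.96 and 5.68 CPM. SLCO4A1 (104 and 95.2 CPM), SLC47A1 (78.4 and 79.3 CPM) and SLC29A1 (74.2 and 94.2 CPM), a nucleoside carrier, were among the highest of the uptake list in CPM. SLC47A1 was counted on that list although it exports organic cations. Among the pumps, ABCC1 stood at 122 and 101 CPM, ABCB1, the P-glycoprotein, at 113 and 108 CPM and ABCG2 at 38.5 and 36.5 CPM. Of the xenobiotic sensors 12 of 17 were detected. NFE2L2, the NRF2 factor of oxidative stress, was at 225 and 244 CPM, AHR at 173 and 156 CPM and NR1I2, the receptor PXR, at 32.3 and 32.7 CPM, in contrast to NR1I3 with 1 count in each library. AHRR, RXRG and ESR1 had 0 counts.

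Fetal liver and liver cancer genes were detected in 20 of 30 (66.7%), with 6 in trace and 4 silent, against 57.1% detected among all protein-coding genes. Beside AFP, the retrotransposon-derived gene PEG10 reached 2219 and 2002 CPM, the growth factor IGF2 1871 and 1389 CPM, PEG3 1346 and 1187 CPM and the cell-surface proteoglycan GPC3 571 and 535 CPM. The fetal RNA-binding proteins IGF2BP1 (375 and 386 CPM), IGF2BP3 (101 and 98.0 CPM) and LIN28B (93.9 and 100.5 CPM) were present, and LIN28A had 0 counts. H19, the noncoding neighbour of IGF2 on chromosome 11, had 2 and 5 counts, or 0.204 and 0.437 CPM. TERT, the telomerase subunit, stood at 10.7 and 10.9 CPM. Proliferation genes were detected without exception, 28 of 28, with TOP2A at 400.2 and 541 CPM, MCM3 at 283 and 321 CPM, MKI67 at 203 and 234 CPM and MYC at 311 and 296 CPM. 24 of these 28 genes were higher in replicate 2, as were 24 of the 32 genes of the housekeeping list and 7554 of the 12471 detected genes (60.6%). The summed level of the proliferation list was 4103 CPM in replicate 1 and 4898 CPM in replicate 2, in which mitochondrial genes held a smaller share of the counts, and the part of that share in the difference was not tested.

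Housekeeping genes were detected in 30 of 32, and both exceptions were near zero. TMSB4X, an actin-binding peptide gene that is abundant in most cells, had 0 and 1 counts, while its relative TMSB10 stood at 461 and 456 CPM. EEF1A2, the elongation factor of muscle and neurons, had 1 and 3 counts beside the many of EEF1A1. VIM, the intermediate filament of mesenchymal cells, picked after its value had been seen, had 0 counts in both libraries, while the epithelial filaments KRT8 (1782 and 1977 CPM) and KRT18 (965 and 921 CPM) were abundant. Of 55 keratin genes 47 were silent, and KRT19, KRT23 and KRT10 were the other detected members.

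Silent genes were distributed unevenly over the annotated classes. Of 1826 microRNA genes 1825 (99.9%) were silent, in libraries made from isolated mRNA, of 10144 processed pseudogenes 92.5%, of 7481 lincRNA genes 83.0% and of 5535 antisense genes 74.9%. The noncoding genes with the highest length-scaled level, pseudogenes and mitochondrial RNA aside, were RN7SL2, MALAT1, RN7SL1, SNHG14 and SNHG29. This order depends on the annotated length. MALAT1 was scaled by a median transcript of 593 bases, far shorter than the gene, which runs from 65497700 to 65506500 on chromosome 11. NORAD, scaled by 5339 bases, stood at 433 and 403 CPM, above MALAT1 in both libraries. RN7SL2, an RNA of the signal recognition particle, stood at 226 and 313 CPM, the nuclear RNA MALAT1 at 297 and 268 CPM and the small nucleolar RNA host SNHG29 at 318 and 309.9 CPM. RN7SL1 and RN7SL2 are near-identical, so their reads may be divided between them.

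Families with known use in other tissues were nearly empty. Of 388 olfactory receptor genes 383 (98.7%) were silent and 0 were detected, of 94 keratin-associated protein genes 95.7% were silent, of 38 beta-defensin genes 97.4%, and all 13 alpha interferon genes had 0 counts. HOX genes, which mark body position, gave 9 of 39 detected, led by HOXD1 (33.3 and 38.9 CPM) and HOXD4 (27.8 and 26.7 CPM). Lists of other lineages had 0 of 12 genes detected for pancreas, 0 of 10 for lung and thyroid, 1 of 12 for keratinocytes, 2 of 18 for striated muscle, 2 of 18 for neurons and 2 of 16 for intestine and kidney. The exceptions with the highest levels were VIL1 (297 and 272 CPM), a protein of the brush border, LGR5 (121 and 140.2 CPM), known from intestinal stem cells, and TUBB3 (93.8 and 86.7 CPM), a tubulin of neurons that tumour cells also use.

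Of the 40907 genes silent under DMSO, 37150 had 0 counts in all 6 compound libraries as well and 3757 had at least 1 count in one of them. A level of at least 1 CPM in both libraries of a compound was reached by 5 of these genes for compound 4, 2 for compound 5 and 3 for compound 6. GPRASP3 was among them for compounds 4 and 5.

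The CpG content of promoters, a measure chosen after results of these data were known, was described for each class without a test. In mammalian genomes, CpG pairs are depleted except in CpG islands, which cover the promoters of most broadly used genes. Promoter sequences of RefSeq on GRCh38.p14, running from 250 bases before to 50 bases after the gene start, were matched by symbol to 15293 of the 19828 protein-coding genes. The ratio of observed to expected CpG had a median of 0.849 in 9237 detected genes, 0.637 in 1804 genes in trace and 0.348 in 4252 silent genes. A ratio of at least 0.6 was found in 84.5% of the detected, 53.3% of the trace and 33.3% of the silent genes. The 60 detected genes of the plasma protein lists had a median of 0.239, below the median of silent genes, and the 5 silent ones had 0.239. The letters TATAAA, on the strand of the gene and from 50 to 11 bases before the start, were in 3.83% of all promoters, in 1.56% of those of detected genes, in 340 of the 4252 silent genes and in 9 of 62 (14.5%) genes with at least 1000 CPM in both libraries.

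5 promoters, picked with the levels of their genes known, are single examples and do not measure how level and CpG content run together. The 250 bases before the start are printed 5′ to 3′ on the strand of the gene, with capitals for each CG pair and for TATAAA in the window searched. ALB (chr4:73404037-73404286, plus strand) and AFP (chr4:73435971-73436220, plus strand) are abundant genes with 3 and 1 CG pairs. FTL (chr19:48965059-48965308, plus strand) is abundant with 18 pairs. CYP3A4 (chr7:99784185-99784434, minus strand), in trace, has 0 pairs, and GSTP1 (chr11:67583562-67583811, plus strand), silent, has 28.
ALB: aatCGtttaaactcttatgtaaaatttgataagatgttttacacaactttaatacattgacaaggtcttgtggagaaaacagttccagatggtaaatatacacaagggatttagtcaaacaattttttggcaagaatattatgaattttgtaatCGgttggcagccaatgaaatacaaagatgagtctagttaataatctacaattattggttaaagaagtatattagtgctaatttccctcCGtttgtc
AFP: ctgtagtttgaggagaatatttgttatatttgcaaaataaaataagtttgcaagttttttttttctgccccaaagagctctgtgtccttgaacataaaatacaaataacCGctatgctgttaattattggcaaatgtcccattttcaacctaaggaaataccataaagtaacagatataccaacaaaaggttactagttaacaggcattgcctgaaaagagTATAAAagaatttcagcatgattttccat
FTL: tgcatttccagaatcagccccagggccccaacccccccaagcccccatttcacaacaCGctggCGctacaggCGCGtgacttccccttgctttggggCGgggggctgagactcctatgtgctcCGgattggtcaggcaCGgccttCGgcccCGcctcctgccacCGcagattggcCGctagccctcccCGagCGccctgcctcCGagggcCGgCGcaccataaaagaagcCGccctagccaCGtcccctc
CYP3A4: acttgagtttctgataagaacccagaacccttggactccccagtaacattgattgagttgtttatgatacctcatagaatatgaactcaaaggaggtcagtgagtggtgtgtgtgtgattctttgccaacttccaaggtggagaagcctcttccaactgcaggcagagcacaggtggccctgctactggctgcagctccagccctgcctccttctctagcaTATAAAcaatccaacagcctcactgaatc
GSTP1: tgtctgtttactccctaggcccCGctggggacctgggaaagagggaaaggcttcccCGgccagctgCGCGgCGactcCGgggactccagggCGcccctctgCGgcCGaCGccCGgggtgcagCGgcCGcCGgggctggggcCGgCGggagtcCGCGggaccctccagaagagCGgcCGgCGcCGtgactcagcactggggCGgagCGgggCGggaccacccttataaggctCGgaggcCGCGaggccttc
The ratio over all 300 bases was 0.481 for ALB, 0.123 for AFP, 0.722 for FTL, 0 for CYP3A4 and 0.879 for GSTP1. AFP and CYP3A4 thus share TATAAA and a nearly CG-free promoter, with 8633 and 9389 CPM for the former and 1 and 0 counts for the latter. FTL and GSTP1 both have many CG pairs, with 6765 and 7677 CPM for FTL and 0 counts for GSTP1. These letters are a description of the reference genome, and the methylation of the promoters was not measured.

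Across the 12471 detected genes, which are not independent replicates, log2 CPM of both libraries had a Pearson correlation of 0.99 and a Spearman correlation of 0.992. The median gene differed 1.12-fold, 79.4% of the genes differed by at most 1.25-fold and 108 (0.866%) by more than 2-fold, of which 100 were among the 3251 detected genes with a mean under 10 CPM. The chi-square per gene had a mean of 8.76 and a median of 1.57, where counting error alone gives 1 and 0.455, so the libraries differed by more than counting error. Of the 9221 genes with a mean of at least 10 CPM, 9 differed by more than 2-fold, 3 of them higher in replicate 1 and 6 higher in replicate 2.

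Among these 9221 genes, the 5 largest differences in favour of replicate 1 were in HAMP (30.2 and 9.17 CPM), TNS1 (51.0 and 22.5 CPM), a protein of focal adhesions, DEPP1 (63.9 and 30.0 CPM), IGFBP1 (2086 and 1059 CPM), a secreted binding protein of insulin-like growth factors that insulin represses, and LCN15 (33.6 and 17.3 CPM). In favour of replicate 2 they were in EIF3CL (0 and 21.7 CPM), RNA5-8SN2 (7.56 and 24.9 CPM), SULT1A4 (49.0 and 116 CPM), SLF1 (7.46 and 15.5 CPM) and TBCE (11.3 and 23.2 CPM). EIF3CL and SULT1A4 have near-identical copies, whose sums were less unequal. EIF3C and EIF3CL together stood at 801 and 845 CPM, and SULT1A3 and SULT1A4 together at 190 and 207 CPM. Of these 10 genes, HAMP and IGFBP1 are secreted hepatocyte proteins.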

How the data were processed

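RNA from CYP2C19-overexpressing HepG2 cells was extracted with a spin-column kit, mRNA was isolated, and directional libraries were sequenced in paired-end mode. The authors checked the reads with FastQC 0.12.0, estimated transcript abundance with Salmon 1.5.0 on an index of GENCODE 38 (GRCh38 in the submitters' processing notes), summed it per gene, and deposited 1 table of unnormalized counts, all of them whole numbers, with 60230 genes and 8 samples. The label of DMSO replicate 1 calls it merged, from sources that are not explained. Whether the counting used the strand is not given in the sources used here, so counts of overlapping genes are uncertain.

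The 2 DMSO columns were analysed, with library totals of 9791659 and 11444500 counts. CPM are counts over the library total. Length-scaled levels (KPM, counts per kilobase, scaled to the same sum as CPM) used the median length of the basic transcripts of GENCODE 29, in which 57972 of the genes had a record, and positions also come from that release. Symbols were found for 41848 of the identifiers, and the others keep the identifier. The members of the comparison and the 43 gene lists were chosen with earlier results of these data known. Named genes are CYP2C19 and its cluster, the 20 highest genes on both measures, up to 6 highest and up to 6 undetected members of each list, the 5 highest noncoding genes and the 5 largest differences between replicates each way. A few genes within the rule are not reported here. Genes outside that rule are named where a sentence needs them and were chosen after their values were seen. No test was run, because there is 1 group. Alternatives were edgeR 4.0.16 TMM and DESeq2 1.42.0 size factors (R 4.3.3), a library total without mitochondrial genes, thinning to the smaller library, other detection minimums, other lengths and leaving out each replicate. Scripts ran in Python 3.11.15 with pandas 2.3.3 and scipy 1.17.1. The code for the classes was run on counts simulated from the observed means with counting error only. That run checks the code and gives the classes no further support.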

Additional observations from a re-analysis of the deposited data

How the results depend on the processing

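No paired analysis was possible because the values describe 1 group and come from no test. The 12471 detected genes, 203 hepatocyte function genes and 133 drug metabolism genes ranged from 11601 to 13367, 198 to 209 and 125 to 140, respectively, over the other scalings, detection minimums and thinning. Leaving out 1 replicate gave 12741 and 12825, 204 in both cases, and 134 and 135. The 40907 silent genes became 41046 with thinning and 44611 when at most 3 counts over both libraries were allowed. CYP2C19, with a mean of 22.4 CPM, was between 22.0 and 24.0 CPM under the other scalings and 17.1 or 27.6 CPM in single replicates. The share of the 100 most abundant genes, 28.8% on average, became 30.9% when divided by a library total without mitochondrial genes. Mitochondrial genes stayed among the 100 genes, so the smaller total itself produces this change. The value is therefore not a share of the nonmitochondrial counts. Of 430 values for single lists, 420 stayed within 1.5 times the count reported, and the other 10 were in lists with few detected genes, such as 2 CYP3 genes in place of 1 at a minimum of 0.5 CPM. Of the 20 highest genes per length, 14 remained with the union of exons, 15 with the longest transcript, 15 with the longest coding sequence, which was chosen after seeing the data, and 19 without either replicate.

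With n = 2 the SD of a level is imprecise. A level of 1 CPM rests on 9.79 and 11.4 counts, and levels below 0.306 and 0.262 CPM could not be told from 0 at this depth.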

Other observations

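Enzymes of fatty acid synthesis lie outside the lists above. SCD, the desaturase that makes oleic acid, stood at 1951 and 1899 CPM and FASN, the fatty acid synthase, at 1313 and 1290.2 CPM, both chosen after their values were seen.

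Silent protein-coding genes, 29.8% of all protein-coding genes, were spread unevenly over chromosomes. The part of clustered gene families in this was not tested. Among the autosomes and chromosome X, their share ran from 17.8% of 848 genes on chromosome 16 and 22.4% of 441 on chromosome 22 to 43.3% of 231 on chromosome 21 and 44.8% of 829 on chromosome X. Collagens gave 10 of 44 genes detected, with COL27A1 (181 and 212 CPM), COL18A1 (153 and 163 CPM) and COL9A3 (143 and 146 CPM) highest in CPM, while COL1A1 had 1 count in replicate 1 and 0 in replicate 2. Of 97 potassium channel KCN genes, 7 were detected and 66 were silent, and of 518 ZNF genes 345 were detected and 93 were silent. Among all protein-coding genes 57.1% were detected and 29.8% were silent.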
